A study of Mus musculus with 4 samples.

Results

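AP-1 transcription factors were examined in EO771, a mouse mammary carcinoma cell line, after exposure to the recombinant mouse lipid chaperone A-FABP (adipose fatty acid binding protein, the product of Fabp4). The set was the listed genes Fos, Fosb, Fosl1, Fosl2, Jun, Junb, Jund, Atf3, Maff and Batf, each represented by the brightest probe set whose annotation names only that gene. Of the 10 genes, 9 had such a probe set, among 22180 genes on the array that did. The only probe set that lists Fosl1 also lists another gene, so Fosl1 has no value here. The treated group consisted of EO771 cells given A-FABP at 100 ng/ml (2 arrays), and the control group of EO771 cells given PBS (2 arrays). Per the labels' protocols, both groups were grown for 24 hours to at least 70% confluence before treatment, and how long the treatment lasted is not given there. All arrays come from 1 cell line. The titles call them biological replicates, and nothing further says that they came from separate cultures. P-values therefore may not reflect the spread between cultures. They rest on the spread of these arrays and, in the limma fit below, on a variance shared by all probe sets. The free-text descriptions of the control arrays also mention A-FABP, and the groups follow the titles.

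AP-1 is a dimer of basic leucine zipper proteins that binds DNA at the TPA response element (TRE) and, with some partners, at the cyclic AMP response element (CRE). Fos proteins need a Jun partner to bind, whereas Jun proteins can also pair among themselves. Several members are immediate early genes, which growth factors, serum, cytokines and stress switch on within minutes through MAP kinases and then let decay. In mammary carcinoma cells AP-1 is known for its part in proliferation, invasion and the expression of matrix proteases and inflammatory mediators.

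The promoters of Junb, Fos and Atf3, the genes with the lowest p-values in the comparison below, are shown with that of Jun, which lay on the opposite side. They are RefSeq sequences of build GRCm38.p6, read 5′ to 3′ on the strand of the gene, from 250 bases before the annotated start to 50 after it. Junb is at chr8:84978699-84978998 (minus strand), Fos at chr12:85473640-85473939 (plus), Atf3 at chr1:191183284-191183583 (minus) and Jun at chr4:95052173-95052472 (minus). Capitals mark matches on either strand to TGACG (the CRE core), TGACGT, TGACGTCA (the full CRE), TGACTCA (the TRE) or TGACATCA.
Junb: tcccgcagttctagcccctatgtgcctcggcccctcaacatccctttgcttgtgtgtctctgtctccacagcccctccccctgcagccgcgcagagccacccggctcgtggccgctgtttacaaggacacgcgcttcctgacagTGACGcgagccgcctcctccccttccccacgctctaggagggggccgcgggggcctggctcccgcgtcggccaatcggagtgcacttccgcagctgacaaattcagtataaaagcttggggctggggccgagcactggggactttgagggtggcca
Fos: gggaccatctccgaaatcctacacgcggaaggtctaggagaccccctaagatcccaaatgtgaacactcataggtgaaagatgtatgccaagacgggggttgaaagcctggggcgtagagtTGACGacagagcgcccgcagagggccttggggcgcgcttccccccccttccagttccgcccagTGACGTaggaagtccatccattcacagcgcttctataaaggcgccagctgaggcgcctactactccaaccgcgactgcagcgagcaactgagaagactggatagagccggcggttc
Atf3: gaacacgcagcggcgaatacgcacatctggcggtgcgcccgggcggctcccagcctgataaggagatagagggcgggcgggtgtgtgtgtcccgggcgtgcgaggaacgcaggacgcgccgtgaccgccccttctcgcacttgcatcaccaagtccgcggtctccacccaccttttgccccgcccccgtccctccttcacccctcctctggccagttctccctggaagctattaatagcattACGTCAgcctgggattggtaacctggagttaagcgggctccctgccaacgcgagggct
Jun: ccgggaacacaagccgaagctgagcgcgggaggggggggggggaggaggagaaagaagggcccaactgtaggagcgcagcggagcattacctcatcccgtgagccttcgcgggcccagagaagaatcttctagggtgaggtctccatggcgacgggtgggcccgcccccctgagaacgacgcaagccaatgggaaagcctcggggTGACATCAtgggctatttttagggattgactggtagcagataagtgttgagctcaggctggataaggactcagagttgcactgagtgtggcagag
The sequences differ in which of these letters they hold. Fos has TGACGT 66 bases upstream of its start and TATAAA 33 bases upstream. In Atf3 the same TGACGT lies on the opposite strand, where it reads ACGTCA, 8 bases upstream. Of the motifs in capitals, Junb holds only the shorter TGACG, 106 bases upstream of its annotated start. TATAAA was found in Junb too, 1 base past that start. Jun has TGACATCA 45 bases upstream and no TGACG. All positions depend on the annotated starts.

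RefSeq windows were matched for the 9 measured genes, in 11 windows because Maff has 3 annotated starts. TGACGT was found in 4 of the 11 windows, those of 4 genes (Atf3, Batf, Fos and Maff), against 7.51% of all 32851 windows. The shares of all windows are not matched for base composition. TGACG, which every TGACGT contains, was found in 7 of the 11 windows, in 6 genes with Fosb and Junb added, against 20.8% of windows. The full CRE TGACGTCA was found in 1 of the 11 windows, at Maff alone among the 9 genes, against 1.79% of windows. The TRE TGACTCA was in no window of the 9 genes, against 5.20% of all windows. The CArG box bound by serum response factor was in none either, against 1.63%. Sequence farther upstream than the windows reach was not searched. The absence of these motifs here thus does not show that a gene, Fos included, lacks them. TGACATCA was searched because the Jun window holds it. It was found in 2 of the 11 windows, at Jun and at another start of Maff, against 3.62% of windows. These are matches of letters in a short window and do not show binding.

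The 4 arrays had medians of 5.95 to 6.03 on the log2 scale, and any pair correlated at r = 0.9853 to 0.9914 across 41345 probe sets. No probe set passed an adjusted p under 0.05 in limma (0 of 41345, 0.0%), and 6258 (15.1%) had an unadjusted p under 0.05. No AP-1 gene was therefore called, and the differences below are given as values. The 8 epithelial markers had mean levels of 4.79 (Epcam) to 8.79 (Krt8), with a median of 6.09 close to the array medians. The 3 mesenchymal markers had levels of 5.28 to 13.94 (Vim) with a median of 5.63, and the 5 fibroblast markers 4.58 to 11.20 (Pdgfra) with a median of 6.29. At an unadjusted p under 0.05, 2 of 5 macrophage and leukocyte markers (Ptprc and Itgam), 1 of 4 endothelial (Tie1) and 1 of 4 adipocyte markers (Cidea) lay lower with A-FABP, against 8.24% of all genes and 13.2% to 16.0% of genes at levels of 4 to 6. Csf1r, of the leukocyte list, lay at 0.16. The mean log2 level of the 5 leukocyte markers was 6.68 and 6.62 with A-FABP against 6.84 and 6.83 with PBS. Cd68 lay at 12.79 and Csf1r at 6.81, while Ptprc (4.22), Adgre1 (4.6) and Itgam (5.3) lay below the array medians. Without detection calls these values do not show which transcripts were present. The part of such markers in the differences below was not tested.

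Within the Jun family, Junb was lower with A-FABP while Jun was not. Junb encodes a Jun protein that can activate or, as a partner of c-Jun, restrain transcription. It lay at 9.65 and 9.61 with A-FABP and at 10.07 and 10.04 with PBS. Both treated arrays lay below both controls, with 0.39 between the groups and at most 0.039 between arrays of the same group. The log2 difference was -0.43 ± 0.08 (limma SE, 2 arrays per group, 95% CI -0.65 to -0.21), or 74.4% of the control level. Its limma p was 0.00587 unadjusted and 0.296 adjusted.

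Jund, whose product is a Jun protein present without stimulation in many cell types, lay at 10.61 and 10.64 with A-FABP and at 10.75 and 10.76 with PBS. The groups did not overlap, and the difference was -0.13 ± 0.08 (95% CI -0.34 to 0.09, limma adjusted p = 0.484). The other probe set of Jund read 7.27 and 7.46 against 7.54 and 7.60, a difference of -0.21 ± 0.10 (95% CI -0.50 to 0.09). Both probe sets thus pointed the same way, and neither interval excludes 0. With trend and robust settings the limma p of the brighter probe set was 0.0224 unadjusted and 0.243 adjusted.

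Jun encodes c-Jun, the transactivating partner of most AP-1 dimers and a target of JNK. Its bright probe set read 12.20 and 12.18 after A-FABP, against 12.09 and 12.11 after PBS. The treated arrays lay above the controls by a small margin, with a difference of 0.09 ± 0.08 (95% CI -0.13 to 0.30, limma adjusted p = 0.613). The interval leaves room for a Jun difference of either sign but excludes one as low as that estimated for Junb. It rests partly on the variance shared by all probe sets, while the SD of Jun was 0.013 with A-FABP and 0.012 with PBS. With trend and robust settings the limma p of Jun was 0.0335 unadjusted and 0.268 adjusted. Array values can understate differences among very bright probe sets, so the Jun difference may be larger than it reads. This was not tested.

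Of the Fos family, Fos itself lay lower, and Fosb and Fosl2 were close to their controls. Fos, the immediate early gene of c-Fos, lay at 6.97 and 6.65 with A-FABP and at 7.26 and 7.39 with PBS. Both treated arrays were below both controls, but they were also 0.32 apart from each other, slightly more than the 0.29 between the groups. The difference was -0.52 ± 0.15 (95% CI -0.93 to -0.11), or 69.8% of the control level, with a limma p of 0.0243 unadjusted and 0.300 adjusted. Without A-FABP replicate 2, the lowest array, it was -0.36 (limma unadjusted p = 0.0646, adjusted p = 0.519), and without A-FABP replicate 1 it was -0.68 (0.0132 and 0.371).

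Fosb, a further immediate early Fos gene, lay at 7.68 and 7.77 with A-FABP and at 7.78 and 7.82 with PBS. The groups were separated by only 0.009, and the difference was -0.07 ± 0.08 (95% CI -0.30 to 0.16). Fosl2, which encodes Fra-2, lay at 10.35 and 10.43 with A-FABP and at 10.40 and 10.32 with PBS. Its groups overlapped, with a difference of 0.03 ± 0.09 (95% CI -0.22 to 0.27) whose sign turned under 4 of 10 alternatives. The limma adjusted p was 0.704 for Fosb and 0.898 for Fosl2.

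Among the related factors, Atf3 was lower and Maff and Batf were near their controls. Atf3, a stress-induced factor that pairs with Jun proteins and often represses, lay at 10.38 and 10.46 with A-FABP and at 10.68 and 10.67 with PBS. The groups were 0.22 apart and the treated arrays 0.081 apart. The difference was -0.26 ± 0.08 (95% CI -0.49 to -0.03), or 83.5% of the control level, with a limma p of 0.0343 unadjusted and 0.308 adjusted.

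Batf, which lacks a transactivation domain and is best known from lymphocytes, lay at 6.65 and 6.75 with A-FABP and at 6.79 and 6.83 with PBS. Its groups were 0.036 apart, and the difference was -0.11 ± 0.09 (95% CI -0.36 to 0.13, limma adjusted p = 0.563). Maff, a small Maf protein that also lacks a transactivation domain, lay at 8.12 and 8.23 with A-FABP and at 8.15 and 8.24 with PBS. Its groups overlapped, and the difference was -0.02 ± 0.09 (95% CI -0.28 to 0.23, limma adjusted p = 0.927). The sign of the Maff difference turned under 3 of 10 alternatives.

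**Figure D1:**
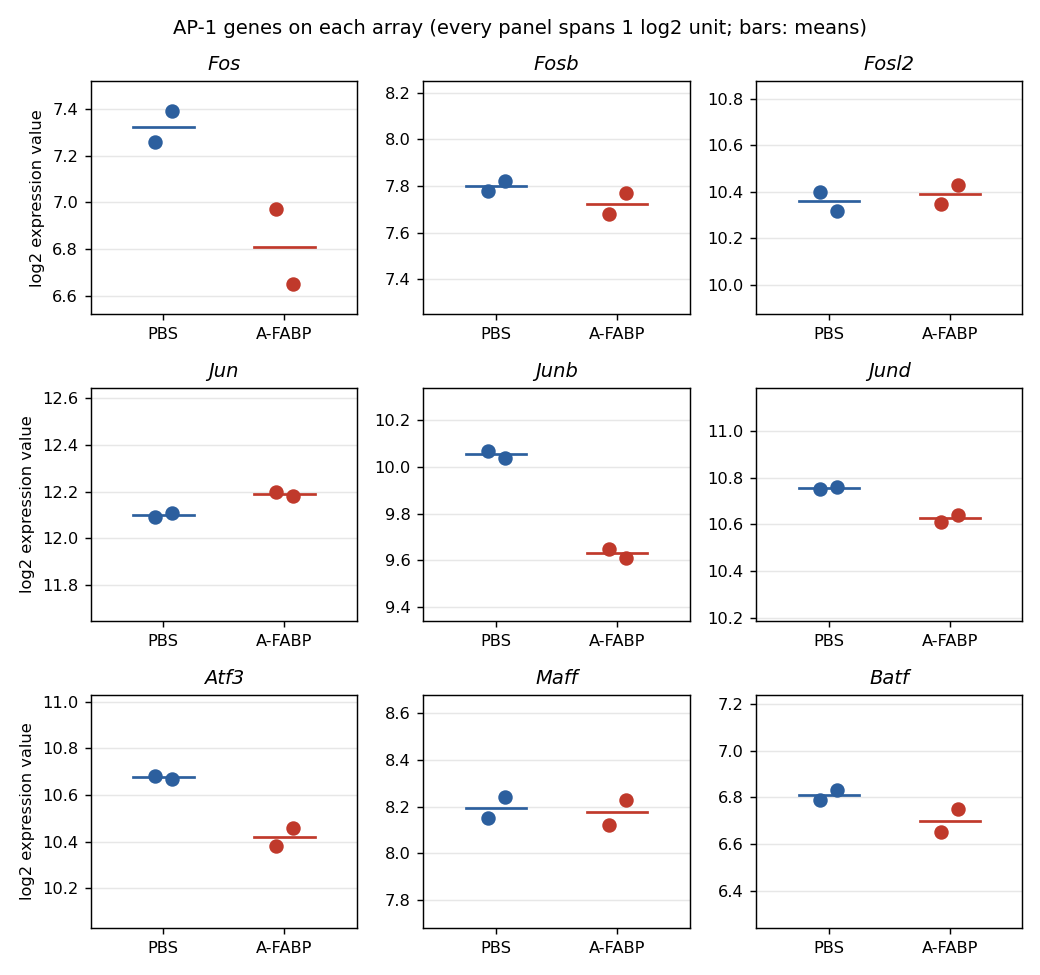
Log2 expression values of the 9 AP-1 genes on each array, PBS in blue and A-FABP in red, with bars at the group means and 1 log2 unit on each vertical axis. Junb, Fos and Atf3 show the widest separation, Jun is slightly higher with A-FABP, and Fosl2 and Maff overlap.

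Over the set, 7 of 9 genes lay below 0 and 2 above, with a median difference of -0.11, where 52.4% of all genes lay below 0 and the median of all genes was -0.01. At an unadjusted p under 0.05, 3 of 9 (Fos, Junb and Atf3) were lower with A-FABP, against 8.24% of all genes, and 0 were higher, against 4.81%. Both treated arrays lay below both controls in 6 of 9 genes, against 27.5% of all genes, and above them in 1, against 26.0%. With so few genes these shares are a description. Leaving out A-FABP replicate 1 gave 2 genes at an unadjusted p under 0.05, and leaving out A-FABP replicate 2, PBS control replicate 1 or PBS control replicate 2 gave 1, which was Junb each time. With the replicate number as a block the count was also 1, again Junb.

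**Figure D2:**
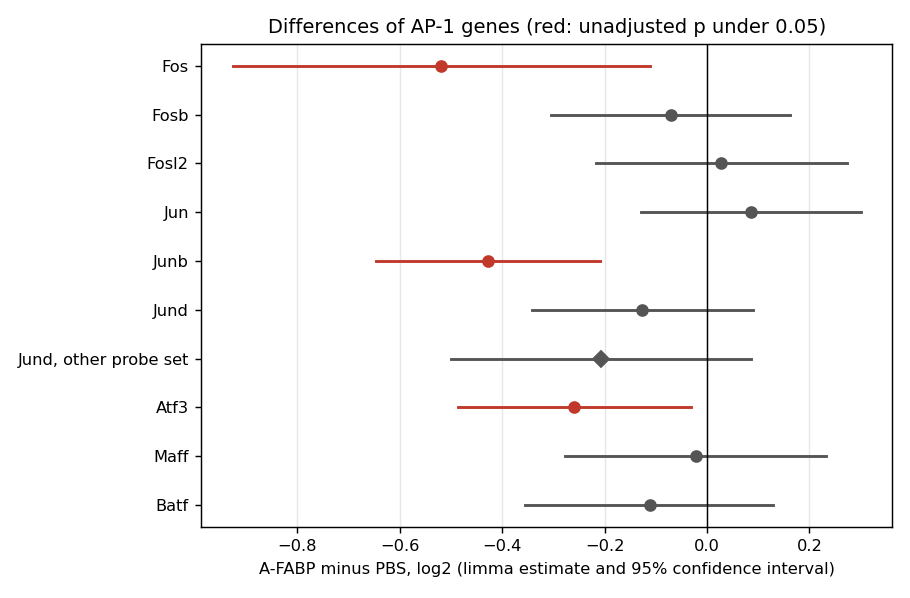
Log2 differences of the AP-1 genes, A-FABP minus PBS, as limma estimates (points) with 95% confidence intervals (lines), with the other Jund probe set as a diamond and genes at an unadjusted p under 0.05 in red. The intervals of Junb (-0.65 to -0.21), Fos (-0.93 to -0.11) and Atf3 (-0.49 to -0.03) lie below 0, and the others include 0.

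Differences in these data follow the level of a gene, so each AP-1 gene was also read against the genes of its own level. Genes at a mean of 7 to 8, where Fos lies, had a median difference of 0.09, and 2.96% of them were lower at an unadjusted p under 0.05. Fos lies at the lower edge of that bin, at 7.07, and the neighbouring bin of 6 to 7 had a median of -0.10 with 12.9% lower. At 9 to 10, the level of Junb, the median was 0.06 and 0.884% were lower. At 10 to 11, the level of Atf3, the median was 0.04 and 1.21% were lower. Among genes within 0.5 of each gene's own level the medians were 0.03 for Fos, 0.05 for Junb and 0.03 for Atf3, so the 3 genes lay against the side of 0 on which most genes of their brightness lay.

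Fewer genes of the same level lay below them than below the other members. A lower difference than that of Fos was found in 0.365% of 2194 genes, than that of Junb in 0.486% of 2262 genes and than that of Atf3 in 1.21% of 1406 genes. For Jund the share was 3.70%, for Fosb 17.3% and for Maff 16.6%. Fosl2 (46.2%) and Batf (47.3%) lay close to the middle of their level, and Jun lay high, with 90.0% of 211 genes below it. In all, 8 of 9 members lay below the median of their level and 1, Jun, above, where a median by definition splits all genes evenly. Of the 8, Fosl2 (0.028 against 0.035) and Batf (-0.112 against -0.101) lay only just below. Among genes within 0.5 of each member's own level the share was 0.677% for Fos, 0.290% for Junb and 1.18% for Atf3. It was 3.7% for Jund, 12.9% for Fosb, 16.9% for Maff, 44.1% for Fosl2 and 38.6% for Batf. For Jun it was 83.7% of 307 genes. These shares carry no replicate error.

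**Figure D3:**
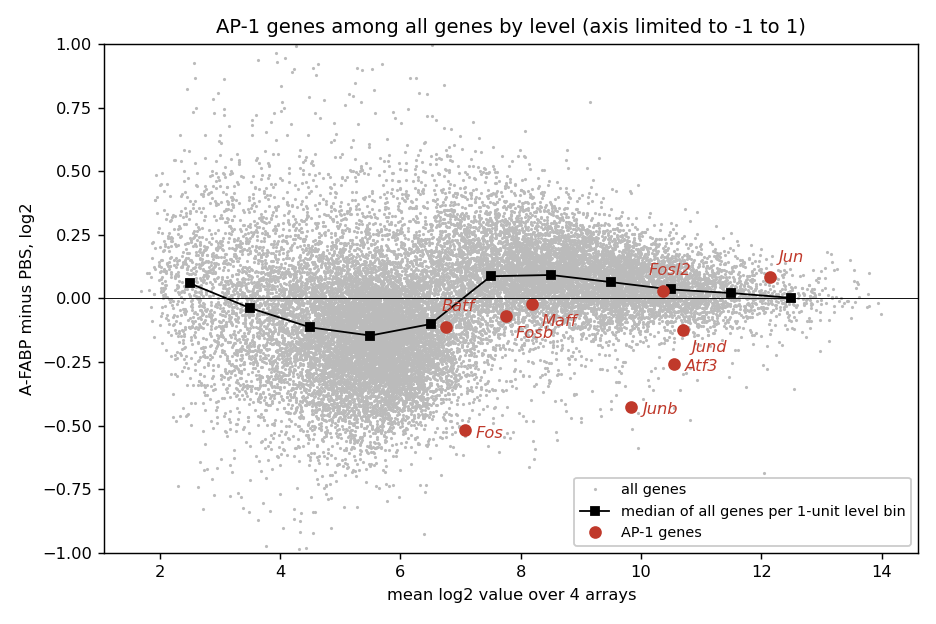
Log2 difference against mean log2 value for all genes (grey), with the median per level bin of 1 log2 unit, in bins of at least 100 genes (black squares), and the AP-1 genes (red). Fos, Junb and Atf3 lie toward the lower edge of the grey points at levels where the medians are 0.09, 0.06 and 0.04, and Batf and Fosl2 lie near the line of medians.

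The RNA signal of Jun was compared with that of each other measured member within each array, where a uniform shift of the whole array cancels. A shift that depends on level does not cancel. Genes in the level bin of Jun had a median difference of 0.002, and those in the bin of Batf -0.10. Among genes within 0.5 of the level of Batf the median was -0.048. Only changes between groups can be read from these values, since levels of different probe sets are not comparable. The log2 value of Jun minus that of Junb was 2.55 and 2.57 in treated cells against 2.02 and 2.07 in controls, a difference of 0.51. Jun minus Fos was 5.23 and 5.53 against 4.83 and 4.72, a difference of 0.60. Jun minus Atf3 was 1.82 and 1.72 against 1.41 and 1.44, a difference of 0.35.

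In 7 of 8 such pairs with Jun both treated arrays lay above both controls, as they did for Jun minus 45.5% of 22179 other genes, and Jun minus Fosl2 overlapped, with a difference of 0.06. The differences for Jund, Batf, Fosb and Maff were 0.21, 0.20, 0.16 and 0.11. All pairs share the Jun values, and Jun was taken as the reference after the values were seen. The exact two-sided permutation test gave p = 0.333 for each of the 7, the smallest that 2 arrays against 2 allow, and 0.381 after Benjamini-Hochberg adjustment over the 8 pairs.

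Further bZIP factors that can pair with AP-1 proteins or bind similar sites lay on both sides of 0. Of 24 measured genes of 26 listed, 8 lay below 0 and 16 above, with a median of 0.03. At an unadjusted p under 0.05, 2 were lower (against 8.24% of all genes) and 1 was higher (against 4.81%), shares near those of all genes. Mafg, a small Maf partner, lay at 8.09 and 8.12 in treated cells against 7.81 and 7.87 in controls, a difference of 0.26 ± 0.08, whereas Maff, its relative, lay at -0.02. Bach2, a repressor that pairs with small Maf proteins, was dim and lay at -0.29 ± 0.09. Batf3, a relative of Batf, was also dim at 5.46 and 5.45 against 5.68 and 5.93, a difference of -0.35 ± 0.12. Nfil3, a transcriptional repressor, lay at -0.28 ± 0.11 with a confidence interval that includes 0. Genes at levels of 5 to 6, where Batf3 lies, had a median of -0.15, and those at 6 to 7, where Bach2 lies, -0.10. At 7 to 8, the level of Mafg, the median was 0.09 and 10.7% were higher at an unadjusted p under 0.05. At 9 to 10, the level of Nfil3, the median was 0.06. The limma adjusted p of these 4 genes was 0.305 to 0.351. With an array left out, 0 to 2 genes of the list were lower and 0 to 1 higher at an unadjusted p under 0.05, with 0 of both without A-FABP replicate 2 or without PBS control replicate 2.

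Kinases and factors that act upstream of AP-1 lay slightly above 0 in most cases. Of 22 measured genes of 26 listed, 17 lay above 0 and 5 below, with a median of 0.10. Over all genes, 10562 of 22180 lay above 0. The list had a median level of 8.90, and all genes at levels of 8 to 9 had a median of 0.09. In 13 of the 22 both treated arrays lay above both controls (26.0% of all genes) and in 0 below (27.5%). Shares of genes at the level of the list were not computed for these counts. At an unadjusted p under 0.05, 1 was higher (against 4.81% of all genes) and 0 lower (against 8.24%), shares near or below those of all genes. That gene was Elk3, an ETS factor that binds with serum response factor at early gene promoters, at 10.02 and 10.12 in treated cells against 9.80 and 9.71 in controls (0.32 ± 0.09, limma adjusted p = 0.302). The count of higher genes was 0 with the replicate block and without A-FABP replicate 2, PBS control replicate 1 or PBS control replicate 2, and 3 after median centring, with trend and robust settings or with the filter. Fbxw7, a ubiquitin ligase subunit that targets c-Jun, lay at 0.19 ± 0.08, Mapk9, which encodes the kinase JNK2, at 0.18 ± 0.08 and Map2k6, a p38 kinase activator, at 0.17 ± 0.08. These values are read against medians of 0.06 to 0.09 for all genes at levels of 7 to 10. Srf, which encodes serum response factor and is named outside the rule, lay at -0.02 (95% CI -0.24 to 0.21).

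Genes known as AP-1 targets held members on both sides of 0. Of 27 measured genes of 30 listed, 15 lay above 0 and 12 below, with a median of 0.08. At an unadjusted p under 0.05, 7 were higher (against 4.81% of all genes) and 2 lower (against 8.24%). Both shares vary with level. Higher were 10.7% of genes at 7 to 8, 9.24% at 8 to 9 and 5.48% at 9 to 10. Lower were 2.96%, 1.31% and 0.884% in the same bins. The list had a median level of 9.62, and all genes at levels of 9 to 10 had a median difference of 0.06. Shares matched to each target were not computed. The 7 higher targets included Ptgs2, the inducible cyclooxygenase gene of prostaglandin synthesis. Ptgs2 lay at 7.78 and 7.85 with A-FABP against 7.29 and 7.39 with PBS. Its difference was 0.48 ± 0.09. Il11, a cytokine gene of the IL-6 family, lay at 7.30 and 7.13 against 6.81 and 6.57, a difference of 0.52 ± 0.13. Mmp3, a matrix protease gene, lay at 9.75 and 9.84 against 9.47 and 9.27, a difference of 0.42 ± 0.11.

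The other higher target genes are named here after their values were seen. They were Mmp13, a collagenase gene (0.39, dim), Il6 (0.41, dim), the cornified envelope gene Sprr1a (0.28) and the quinone reductase gene Nqo1 (0.27). The treated arrays were 0.27 apart for Mmp13 and 0.31 for Il6, more than the 0.22 and 0.19 between the groups. The lower ones were Vegfa, an angiogenic growth factor gene, at 11.60 and 11.53 against 11.90 and 11.93 (-0.35 ± 0.08), and Hmox1, which encodes heme oxygenase (-0.36 ± 0.10). The limma adjusted p of these 9 genes was 0.296 to 0.325. Over the whole list both treated arrays lay above both controls in 14 of 27 genes, against 26.0% of all genes, and below them in 9, against 27.5%. Leaving out an array in turn reduced the 7 higher genes to 3 (without A-FABP replicate 1), 2 (without A-FABP replicate 2), 3 (without PBS control replicate 1) and 1 (without PBS control replicate 2). Of the 2 lower genes, 0 were left without A-FABP replicate 2 or without either control replicate. The list was drawn up from general knowledge, and many of its genes also answer to other factors such as NF-kB, STAT3 and NRF2.

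**Figure D4:**
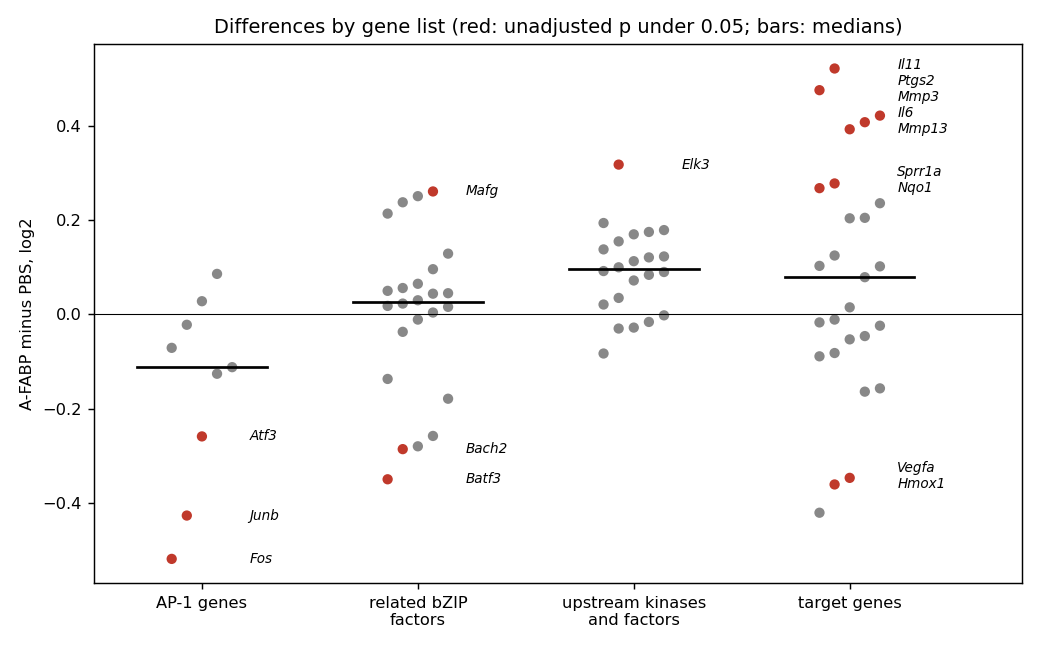
Log2 differences, A-FABP minus PBS, of the AP-1 genes and of 3 lists of related genes, with a point per gene, bars at the medians (-0.11, 0.03, 0.10 and 0.08 from left to right) and genes at an unadjusted p under 0.05 in red with their names. Fos, Junb and Atf3 lie low, while 7 of the 9 red target genes lie above 0.

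Across the settings tried, the Junb difference ranged from -0.48 to -0.36 over 10 alternatives, with an unadjusted p under 0.05 in all 10. Fos ranged from -0.68 to -0.36 with 6 of 10, and Atf3 from -0.30 to -0.19 with 4 of 10. Jun stayed above 0 in all 10 alternatives, at 0.08 to 0.15, and Jund below 0 in all 11, at -0.21 to -0.06. No member had an adjusted p under 0.05 in any of them.

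**Figure D5:**
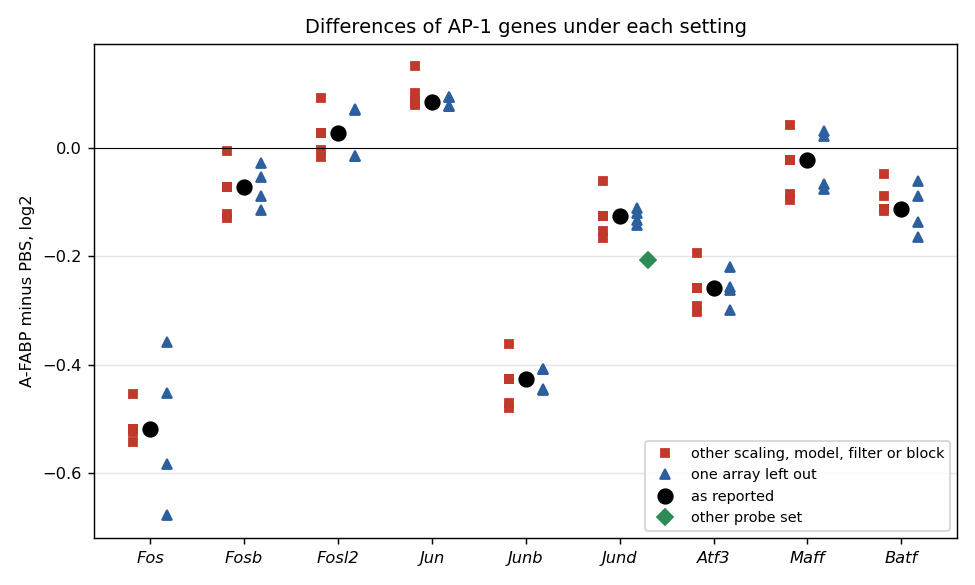
Log2 differences, A-FABP minus PBS, of each AP-1 gene as reported (black), under another scaling, variance model, filter or block (red), with an array left out (blue) and at the other probe set of Jund (green). Junb stays between -0.48 and -0.36, Fos spreads from -0.68 to -0.36, and Fosl2 and Maff cross 0.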

How the data were processed

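Total RNA of EO771 cells was hybridised to 4 single-colour arrays. The deposited table holds log2 values made by the authors with RMA and Partek 6.6, per the submitters' processing notes. RMA adjusts for background, scales arrays to a common distribution and combines probes. Array values can understate differences at both ends of the brightness range. Array design and detection calls are not stated in the labels. They name an Affymetrix 3' labelling kit, while the probe annotation may belong to a whole-transcript array, so the transcript region behind each value is unknown. The number of arrays limits the precision. The platform's annotation names 1 gene for 23521 of 41345 probe sets. The probe set with the highest mean stands for a gene.

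Differences are A-FABP minus PBS, fitted over all probe sets with limma 3.58.1 (lmFit and eBayes, 2 residual degrees of freedom) in R 4.3.3. Each SE, interval and p-value combines the probe set's own spread with a variance shared by all probe sets (1.913 prior degrees of freedom). P-values are two-sided and Benjamini-Hochberg adjusted over 41345 probe sets. Members and lists were chosen with earlier results of these data known. Named were all members and, per list, up to 4 genes with the lowest p, with 5 further targets, Srf and marker genes named outside this rule after their values were seen. Mrtfa and Mrtfb were matched through RefSeq synonyms. Alternatives were median centring, cyclic loess, quantile normalization, trend and robust settings, a filter at the median level, a replicate block and leaving out each array.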

Additional observations from a re-analysis of the deposited data

How the results depend on the processing

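No probe set had an adjusted p under 0.05 under any setting (0 in each). The 3 AP-1 genes at an unadjusted p under 0.05 became 5 with trend and robust settings (Jun and Jund added), 2 after median centring, 1 with the replicate block and 1 to 2 with an array left out. The 13 such genes among the 73 measured in the 3 lists became 19 with trend and robust settings, 18 with the filter at the median level, 15 after median centring, 10 after cyclic loess, 9 with the replicate block, 8 after repeated quantile normalization and 1 to 7 with an array left out. The Fosl2 difference turned to -0.017 after cyclic loess and -0.004 after repeated quantile normalization, and ranged from -0.015 to 0.072 with an array left out. The Maff difference turned to 0.043 after median centring and ranged from -0.076 to 0.032 with an array left out. List medians ranged from -0.01 to 0.09 for related bZIP factors, 0.04 to 0.16 for upstream genes and 0.04 to 0.14 for targets. The cause of these shifts was not tested. Median centring moved the median of all genes from -0.01 to 0.05. Arrays of the same replicate number did not deviate together (r = -0.009 across probe sets), so the numbers were not taken as pairs, and the block leaves 1 residual degree of freedom. With an array left out, the lone array of its group is assumed to vary like the other group.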
